A study of Mus musculus with 18 samples.

Results

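The SOCS family (suppressors of cytokine signalling) was followed in mouse bone marrow macrophages. Its members were the rows of the deposited table with the gene symbols Socs1, Socs2, Socs3, Socs4, Socs5, Socs6, Socs7 and Cish. All 8 were present among 16909 gene symbols, and all 8 passed the filter on low counts along with 12465 genes in all. Poly(A) RNA had been sequenced in 18 libraries. Con, the mock group, had 3 libraries, and LPS, the positive control for inflammation, had 5. STSABs (n = 5) and UVABs (n = 5) received apoptotic bodies (ABs) from cells that the labels call hucMSC, induced with STS or with UV, both listed as treatments against inflammation. For 2 of the UVABs libraries the labels use the spelling UVAB, which the design text equates with it. No strain, genotype, age, sex, dose or time is given in the sources used here. They also do not say whether the AB groups received LPS or whether libraries came from separate cultures or animals. So each p-value sets a difference of groups against the scatter of these libraries, a scatter that may be technical.

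SOCS proteins are intracellular brakes on cytokine receptors. Cytokines bind receptors that carry Janus kinases (JAKs), the kinases phosphorylate STAT transcription factors, and the STATs switch on genes that include Socs1, Socs3 and Cish, whose proteins then shut off the same receptor. Each SOCS protein has an SH2 domain that binds phosphotyrosine and a SOCS box that recruits elongins B and C and a cullin to tag bound proteins for degradation. SOCS1 and SOCS3 can also block JAK activity directly. In macrophages lipopolysaccharide (LPS), a component of bacterial outer membranes, acts through a Toll-like receptor and leads to the release of interferon and other cytokines that use JAKs.

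Promoter sequences from RefSeq (build GRCm38.p6, 250 bases before to 50 after the start site) were at hand for 4 of the 8 members. All 4 that were at hand are shown. Among them Socs1 and Socs3 had the largest rises of the family in LPS, Cish is a textbook STAT5 target, and Socs4 was lower in LPS. The libraries were processed with the build mm39 per the submitters' processing notes, so these coordinates belong to the RefSeq table alone. Capitals mark matches to TTCNNNGAA, the gamma-activated sequence bound by STAT dimers, and to GAAANNGAAA, the core of the interferon-stimulated response element. Both strands were searched and overlapping matches were counted.
Socs1 (chr16:10785487-10785786, minus strand): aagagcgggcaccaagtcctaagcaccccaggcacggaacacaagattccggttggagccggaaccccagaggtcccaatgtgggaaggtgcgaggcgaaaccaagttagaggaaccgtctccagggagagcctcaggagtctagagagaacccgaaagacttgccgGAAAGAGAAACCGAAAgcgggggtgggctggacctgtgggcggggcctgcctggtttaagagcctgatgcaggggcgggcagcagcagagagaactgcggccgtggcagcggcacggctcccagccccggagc
Socs3 (chr11:117969317-117969616, minus strand): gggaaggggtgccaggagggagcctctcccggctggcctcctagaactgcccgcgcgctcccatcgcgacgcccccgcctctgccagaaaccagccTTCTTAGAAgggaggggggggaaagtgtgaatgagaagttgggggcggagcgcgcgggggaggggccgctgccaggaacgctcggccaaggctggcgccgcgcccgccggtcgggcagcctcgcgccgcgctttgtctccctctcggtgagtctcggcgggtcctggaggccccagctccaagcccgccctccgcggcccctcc
Cish (chr9:107296409-107296708, plus strand): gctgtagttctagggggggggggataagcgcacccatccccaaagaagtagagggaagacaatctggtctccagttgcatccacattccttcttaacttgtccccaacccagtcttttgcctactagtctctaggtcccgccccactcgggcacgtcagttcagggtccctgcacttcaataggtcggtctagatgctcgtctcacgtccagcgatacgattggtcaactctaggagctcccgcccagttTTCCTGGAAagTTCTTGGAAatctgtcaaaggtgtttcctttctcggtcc
Socs4 (chr14:47276670-47276969, plus strand): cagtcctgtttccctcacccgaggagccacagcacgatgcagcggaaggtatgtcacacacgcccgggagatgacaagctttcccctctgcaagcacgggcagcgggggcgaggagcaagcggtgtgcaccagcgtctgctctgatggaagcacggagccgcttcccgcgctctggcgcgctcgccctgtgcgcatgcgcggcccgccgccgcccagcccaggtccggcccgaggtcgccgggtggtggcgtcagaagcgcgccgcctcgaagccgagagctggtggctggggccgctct

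The Socs1 window held 2 overlapping matches to GAAANNGAAA, starting 83 and 77 bases before the start site, GAAAGAGAAA and GAAACCGAAA. Of 32851 promoter windows of this length 3.44% held at least 1 such match and 0.225% held 2 or more. The Socs3 window held 1 match to TTCNNNGAA, TTCTTAGAA, 154 bases before the start site. In the Cish window 2 matches lay side by side, TTCCTGGAA from base 1 and TTCTTGGAA from base 12 of the transcript. At least 1 match to TTCNNNGAA stood in 8.30% of all windows and 2 or more in 0.457%. The Socs4 window had neither motif. Matches to TTCNNNNGAA (6.95% of windows) and to the NF-kB consensus (4.505% of windows) were in none of the 4. A match is a description of letters and not a measured binding site.

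Levels are given as CPM, estimated counts divided by library size after TMM scaling, a correction for composition. A change is a log2 fold change with its SE, fitted with edgeR (quasi-likelihood) over the whole table. The words rose and fell are used where the Benjamini-Hochberg adjusted p was below 0.05. Library totals ran from 17588357 to 18675283 estimated counts. The members' own counts ran from 77 for Socs5 in an LPS library to 18668 for Socs3 in an STSABs library. All 8 macrophage markers were detected in every group, with summed levels of 9730 to 13600 CPM. Lyz2 carried this sum (7998 CPM in Con and 9548 in LPS), and its estimated counts were whole in no library. Of the 8 markers 4 rose and 3 fell in LPS, and 2 rose and 4 fell in each AB group against LPS. Csf1r went from 790.8 CPM in Con to 255 in LPS, and Mertk from 125 to 551.3. The estimated counts of Mertk were not whole in 17 libraries. Markers of T and NK cells, which use SOCS1 and CISH heavily, summed to between 5.04 and 8.67 CPM in all libraries. Cd3e was at 0 counts only in LPS and STSABs, and Ncr1 only in Con. Cd4 was the largest part of the sum and rose in LPS (3.32 CPM in Con and 4.46 in LPS). Cd8a also rose (0.602 and 2.52), while Klrb1c fell (1.67 and 0.146). B cell markers summed to 2.60 to 3.28 CPM in Con, 4.79 to 7.18 in LPS, 2.34 to 5.29 in STSABs and 2.91 to 4.19 in UVABs. Of the 4 tested, Cd79b rose in LPS (0.843 CPM in Con and 3.65 in LPS), Cd79a fell (0.650 and 0.219) and 2 did not pass. The summed neutrophil and precursor markers were 819 to 1010 CPM in Con, 1230 to 1660 in LPS and 2150 to 3200 in the AB groups, with none of the 7 at 0. S100a8 and S100a9 carried this sum (268.9 and 444.5 CPM in Con, 544.5 and 663.5 in LPS). Of the 7 genes 5 rose in LPS, Ltf fell (165.1 CPM in Con and 102.7 in LPS) and Mpo did not pass. All 7 rose in each AB group against LPS. The summed dendritic cell markers were 208 to 229 CPM in Con and 2450 to 3390 elsewhere, a sum carried by Ccr7 (141.8 CPM in Con and 2492 in LPS), while Cd209a went from 41.8 to 2.85 CPM. Of the 4 tested dendritic genes 2 rose and 1 fell in LPS. The summed stromal markers were 47.1 to 50.5 CPM in Con and 6.30 to 20.9 elsewhere, a sum carried by Lepr, also a cytokine receptor (47.5 CPM in Con and 5.28 in LPS), while the other 5 genes each had group means below 1 CPM. Mast cell and basophil markers summed to 50.7 to 59.0 CPM in Con, 34.4 to 62.5 in LPS, 60.7 to 87.7 in STSABs and 49.8 to 85.5 in UVABs. Mcpt4 was at 0 in LPS and both AB groups, but all 3 tested markers rose in each AB group against LPS. Of these Cpa3 had the highest level, at 37.6 CPM in LPS, 68.3 in STSABs and 60.8 in UVABs. Replicate 2 of both AB groups stood apart over the whole table: the chi-square per gene was 19.1 to 32.3 in the 8 pairs with it and 2.46 to 8.74 in the other 12 pairs within the AB groups. The part of these markers in the results on the SOCS genes was not tested, and in bulk RNA fewer cells of a type and less RNA per cell cannot be told apart.

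**Figure D1:**
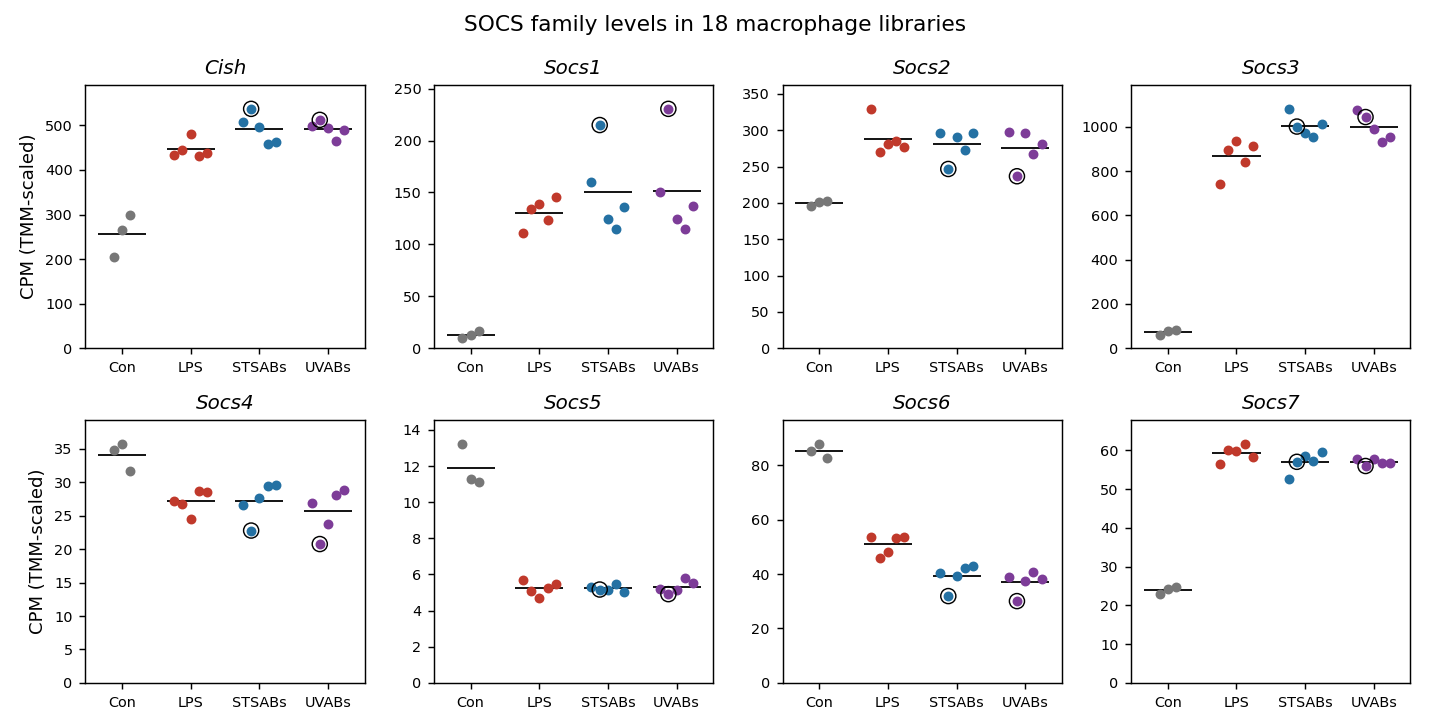
CPM (TMM-scaled, vertical axis, linear from 0) of the 8 SOCS family genes in each of the 18 libraries, by group (Con n = 3, the others n = 5). Points are libraries in order of replicate number, black lines are group means, and rings mark replicate 2 of both AB groups; Socs1, Socs3, Socs7, Cish and Socs2 sit higher and Socs4, Socs5 and Socs6 lower in the 15 libraries of the other groups than in Con.

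LPS against Con asks how the inflamed control differs from mock-treated macrophages. Of the 8 members 5 rose and 3 fell, and none missed the threshold. Over all tested genes 83.0% passed in this comparison, 40.0% higher and 43.0% lower, so a call by itself sets no member apart. All 8 members also had groups that did not overlap, as did 80.0% of genes. Scaling decides part of this balance: with library totals in place of TMM, 3 members were higher, 4 lower and Cish did not pass.

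Socs3 restrains receptors of the interleukin-6 family and the receptor for G-CSF. Con libraries stood at 57.9, 77.2 and 83.9 CPM. LPS libraries stood at 742.7, 894, 937.5, 839.8 and 915.2 CPM. The lowest LPS library was thus far above the highest Con library, and LPS replicate 1 was the lowest of its group. Socs3 rose 11.9-fold, by 3.57 ± 0.11 (edgeR quasi-likelihood, Benjamini-Hochberg adjusted p = 1.98e-18).

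Socs1 is the main brake on interferon receptors and also acts on interleukin-4 signalling. It stood at 9.81, 12.3 and 16.9 CPM in Con. In LPS it stood at 111, 134, 138.5, 124, and 145 CPM. It rose 10.03-fold, by 3.33 ± 0.24 (edgeR quasi-likelihood, adjusted p = 2.03e-11). With library totals the rise was 2.58 for Socs1 and 2.82 for Socs3, both still past the threshold. The relative spread was wide in Con, where replicate 1 was lowest for Socs1, Socs3 and Cish alike. Within each library Socs3 exceeded Socs1 in counts by a log2 ratio of 2.51 ± 0.18 in Con (SD, n = 3) and 2.73 ± 0.04 in LPS (SD, n = 5), a measure that no scaling alters.

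Cish, the first member to be described, binds receptors that signal through STAT5, such as those for GM-CSF and interleukin-3. Con libraries stood at 204, 264.5 and 299 CPM, and LPS libraries at 434, 445, 481, 431 and 439 CPM. Groups did not overlap, but the lowest and highest Con libraries lay further apart than any LPS libraries did. Cish rose 1.74-fold (0.80 ± 0.09; edgeR quasi-likelihood, adjusted p = 1.36e-08), and stood at 0.06 (adjusted p = 0.522) with library totals. The library protocol marks strand, but the counting setting is not given in the sources used here. If strand was ignored, reads of Cish cannot be told apart from those of Gm17041 and Gm17040, which lie opposite it. Socs6, in the same annotation, holds 3 processed pseudogenes, 2 of them on its own strand, where a strand setting would not separate reads.

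Socs2, best known as a brake on growth hormone signalling, ranged from 196 to 202.5 CPM in Con and from 270 to 329.5 in LPS. It rose by 0.53 ± 0.08, and fell by 0.22 under library totals, both past the threshold. Socs7, which has been linked to insulin signalling and to nuclear transport of adaptor proteins, ranged from 22.9 to 24.8 CPM in Con and 56.5 to 61.8 in LPS. It rose 2.47-fold (1.30 ± 0.05; edgeR quasi-likelihood, adjusted p = 5.51e-16), with the smallest SE of any member. It kept this direction with library totals, at 0.56.

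The other 3 members fell. Socs5, which can act on receptors for interleukin-4 and epidermal growth factor, went from 11.1 to 13.2 CPM in Con to 4.72 to 5.69 in LPS (-1.18 ± 0.08; edgeR quasi-likelihood, adjusted p = 1.26e-11). Socs6, which binds insulin receptor substrates and the stem cell factor receptor KIT, stood at 85.2, 88.0 and 82.8 CPM in Con. In LPS it stood at 53.7, 45.9, 48.3, 53.1 and 53.7 CPM. It fell by 0.74 ± 0.09 (adjusted p = 4.89e-08). Socs4, the closest relative of Socs5, went from between 31.8 and 35.8 CPM to between 24.6 and 28.7, the change nearest to 0 in the family with TMM scaling but not with library totals, where it was -1.07 (-0.33 ± 0.09; edgeR quasi-likelihood, adjusted p = 0.00243). All 3 kept this direction under each scaling tried.

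**Figure D2:**
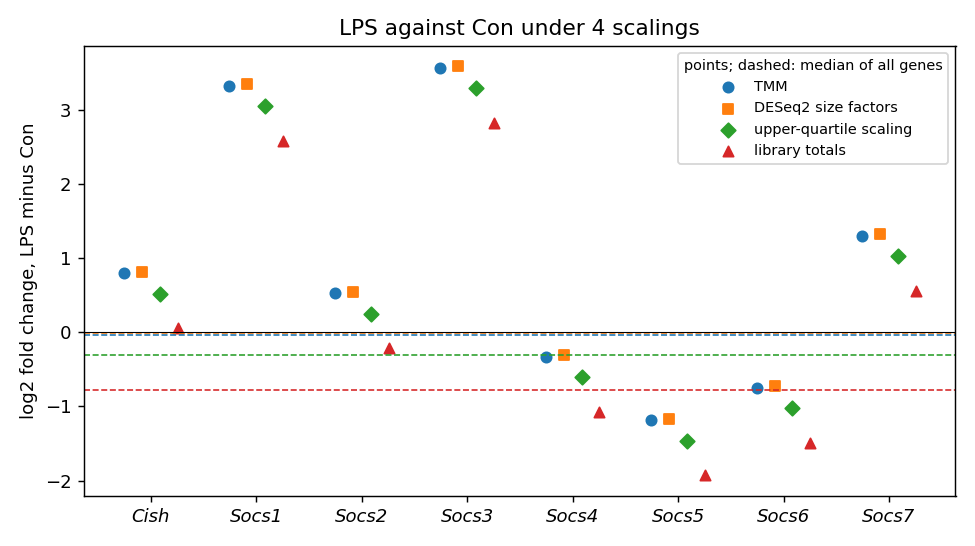
Log2 fold change of each SOCS gene in LPS against Con (vertical axis) under TMM, DESeq2 size factors, upper-quartile scaling and library totals (point shapes). Dashed lines show the median of all tested genes under each scaling, which moves from -0.03 with TMM to -0.31 and -0.78 with upper-quartile scaling and library totals; Socs2 crosses 0 with library totals and every member stays on its side of the median of its own scaling.

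TMM factors were 1.51 to 1.52 in Con and 0.895 to 0.939 in the other groups. The median of all genes shifted to -0.31 with upper-quartile scaling and -0.78 with library totals. Relative to that median, Socs1, Socs2, Socs3, Socs7 and Cish stood above and Socs4, Socs5 and Socs6 below under all 4 scalings, except that Socs2 and Cish lost their rise against 0 with library totals.

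Levels of different members were compared per kilobase of exon in the GENCODE M21 annotation, since the annotation behind the counts is not given. In Con the order was Socs2 (74.1 ± 1.39 CPM per kilobase, SD, n = 3), Cish (70.2 ± 13.2), Socs3 (28.6 ± 5.28), Socs6 (13.9 ± 0.418), Socs4 (4.96 ± 0.307), Socs1 (4.48 ± 1.25), Socs7 (3.42 ± 0.139) and Socs5 (2.56 ± 0.252). Neighbours whose libraries overlapped were Socs2 with Cish, Socs4 with Socs1, and Socs1 with Socs7. In LPS the order began with Socs3 (339 ± 30.5, SD, n = 5), Cish (122 ± 5.53), Socs2 (107 ± 8.74) and Socs1 (44.9 ± 4.60), followed by Socs7 (8.46 ± 0.284), Socs6 (8.29 ± 0.594), Socs4 (3.95 ± 0.245) and Socs5 (1.13 ± 0.0793). Here Cish with Socs2 and Socs7 with Socs6 overlapped. The same order of 8 held in STSABs and UVABs, where no neighbours overlapped. RefSeq's gene for Socs1 spans only 1729 bases, over which Socs1 would stand at 7.53 in Con, above Socs4, and at 75.6 in LPS, in the same place as before.

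The make-up of the family's transcript pool, which is free of library scaling, changed accordingly. Socs3 made up 14.06% ± 1.245 of the length-scaled family sum in Con (SD, n = 3) and 53.3% ± 2.44 in LPS (SD, n = 5). Socs2 went from 36.9% ± 3.19 to 16.9% ± 2.17, Cish from 34.5% ± 3.12 to 19.3% ± 0.640, and Socs6 from 6.92% ± 0.794 to 1.31% ± 0.138. Socs1 went from 2.19% ± 0.407 to 7.06% ± 0.436. In each of these 5 genes the Con and LPS libraries did not overlap.

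**Figure D3:**
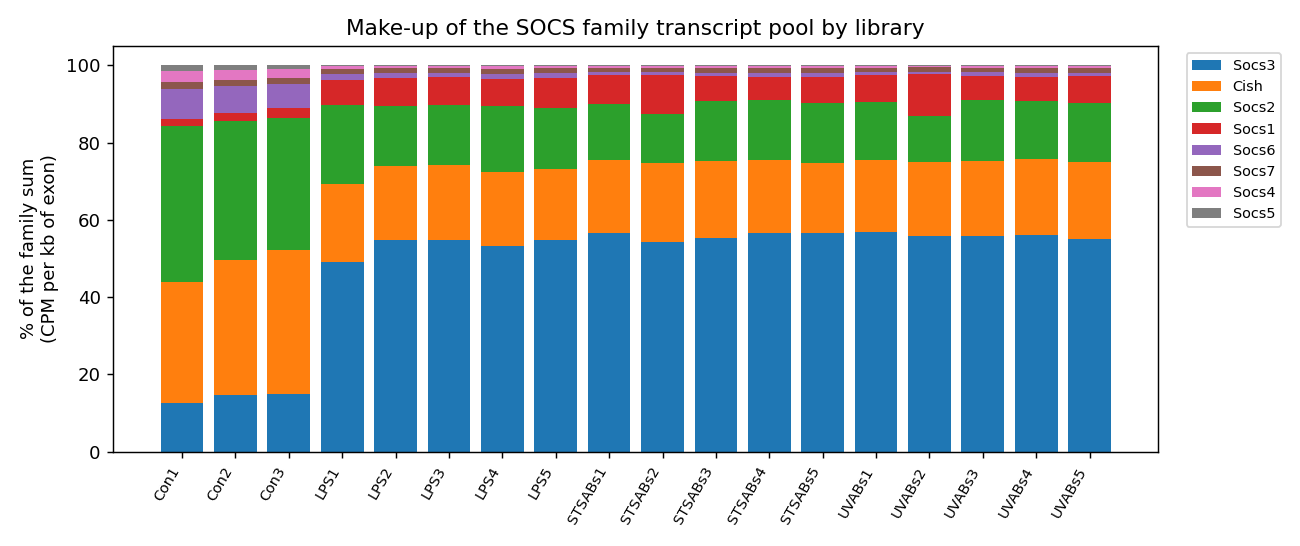
Share of each SOCS gene in the family sum of CPM per kilobase of exon (vertical axis, percent) for each of the 18 libraries (bars). Socs2 and Cish take most of the pool in the 3 Con libraries and Socs3 takes between 49.1% and 56.9% in the other 15.

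The next question was how macrophages given either kind of bodies differed from the inflamed control. In each of these comparisons Socs3 was the only member to rise, Socs6 was the only member to fall, and the other 6 did not pass. Over all genes 57.4% passed in STSABs against LPS (28.4% higher, 29.0% lower) and 57.4% in UVABs against LPS (28.6% higher, 28.8% lower). The 2 comparisons share the LPS libraries.

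Socs6 stood at 40.4, 31.9, 39.1, 42.4 and 42.8 CPM in STSABs, and at 38.8, 30.1, 37.5, 40.7 and 38.2 in UVABs. All 10 libraries were below the lowest LPS library, at 45.9 CPM, and replicate 2 was lowest in both AB groups. Groups that do not overlap were found for 42.5% of genes in STSABs and 42.3% in UVABs. Socs6 fell by 0.37 ± 0.08 in STSABs (edgeR quasi-likelihood, adjusted p = 0.000387) and 0.46 ± 0.08 in UVABs (adjusted p = 4.36e-05), n = 5 each. Without replicate 2 of both AB groups the changes were -0.31 and -0.39, both still called. Socs6 thus moved away from LPS in the same direction in which LPS had moved from Con.

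Socs3 stood at 1081, 1001, 970.5, 953 and 1013 CPM in STSABs, all above the highest LPS library. In UVABs it stood at 1075, 1044, 988, 932 and 955 CPM, of which replicate 4 was below that library. It rose by 0.21 ± 0.08 in both (edgeR quasi-likelihood, adjusted p = 0.0234 in STSABs and 0.0277 in UVABs). These calls rest on few libraries. In STSABs the call ended without LPS replicate 1 (0.16) or STSABs replicate 1 (0.18), in UVABs without LPS replicate 1 (0.15), LPS replicate 4 (0.19) or UVABs replicate 1 (0.18), and in both with replicates 1 to 3 only (0.25 and 0.28).

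Cish stood at 509, 537, 497, 458 and 464 CPM in STSABs and 498, 512.5, 494, 465 and 490 in UVABs, against a highest LPS value of 481. Its changes of 0.14 ± 0.07 in each AB group did not pass (edgeR quasi-likelihood, adjusted p = 0.0922 and 0.0983). They passed without Con replicate 1, which is in neither of the groups compared (0.14 in each). They also passed in fits of only the groups compared (0.16 in each) and with library totals (0.19 and 0.18).

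Socs1 stood at 160, 215, 125, 114 and 136 CPM in STSABs and 150, 230.6, 125, 115 and 137 in UVABs. Replicates 1 and 2 of each AB group were above the highest LPS library, at 145.4 CPM, and replicates 3 to 5 were within the LPS range. Changes were 0.20 ± 0.17 and 0.21 ± 0.17, and neither passed (edgeR quasi-likelihood, adjusted p = 0.337 and 0.303). Without replicate 2 of both AB groups they were 0.04 and 0.01.

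Approximate 95% intervals of the changes bound what could have been missed. For Socs2 they ran from -0.17 to 0.09 in STSABs and -0.19 to 0.06 in UVABs, and for Socs4 from -0.16 to 0.17 and -0.25 to 0.09. For Socs5 they ran from -0.17 to 0.17 and -0.14 to 0.19, and for Socs7 from -0.14 to 0.03 in each. The interval of Socs1 was wider, from -0.14 to 0.54 and -0.12 to 0.55. That of Cish ran from 0.0034 to 0.285 in STSABs and from 0.0006 to 0.282 in UVABs. It lay above 0 although the unadjusted p was 0.0576 and 0.0622 (edgeR quasi-likelihood), so these intervals are somewhat too narrow.

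**Figure D4:**
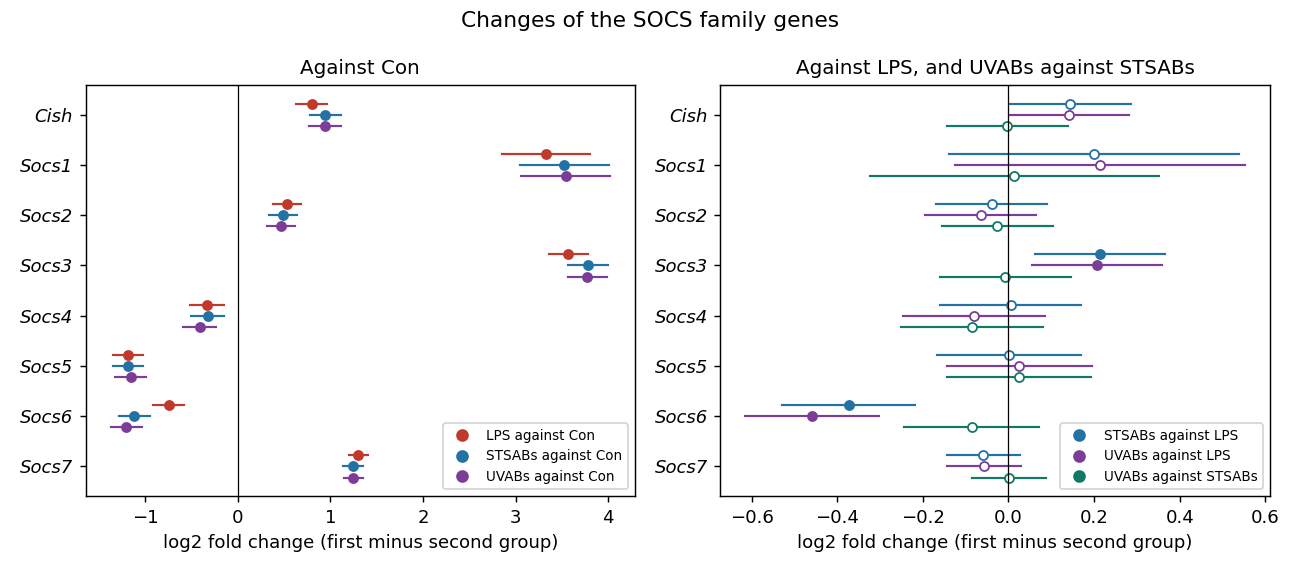
Log2 fold changes of the 8 SOCS genes (horizontal axis) with approximate 95% intervals (1.96 SE), against Con on the left and against LPS and between the AB groups on the right, on different scales. Filled points passed the adjusted threshold and open points did not; Socs3 and Socs6 are the members with filled points on the right.

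UVABs were compared with STSABs directly. None of the 8 members passed, and of all 12465 genes 0 did (0%) with edgeR's quasi-likelihood test; at an unadjusted p under 0.05 there were 198 genes, none of them a member. DESeq2 and limma-voom also called 0 genes, with 151 and 191 at an unadjusted p under 0.05. Differences ran from -0.09 ± 0.08 for Socs6 to 0.02 ± 0.09 for Socs5. Same-numbered libraries of these groups deviated together, and in 5 of 5 such pairs Socs6 was lower in UVABs. With the replicate number as a block the difference in Socs6 was again -0.09 and did not pass (edgeR quasi-likelihood, adjusted p = 0.997 in the fit of the AB groups alone). Of the other members, Socs4 and Socs7 were lower in UVABs in 4 pairs, Socs2, Socs3 and Cish in 3, Socs5 in 2 and Socs1 in 1. The interval was from -0.16 to 0.14 for Socs3, from -0.24 to 0.07 for Socs6 and from -0.08 to 0.09 for Socs7. It was widest for Socs1, from -0.32 to 0.35. The data thus leave room for small differences between the kinds of bodies, and these intervals do not show that both act alike.

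Against Con, both AB groups had the same 5 members higher and 3 lower as LPS had. Over all genes 82.6% passed in each of these comparisons (40.0% higher and 42.6% lower in STSABs, 40.2% and 42.4% in UVABs). The libraries of all 8 members lay apart from Con in both, as did those of 77.6% of genes in each. Socs3 stood 13.8-fold above Con in STSABs (3.78 ± 0.11) and 13.7-fold in UVABs (3.77 ± 0.11), and Socs1 11.5-fold (3.52 ± 0.24) and 11.6-fold (3.54 ± 0.24). Socs6 was 2.17-fold lower in STSABs (-1.12 ± 0.09) and 2.30-fold lower in UVABs (SE also 0.09). Cish stood at 0.94 ± 0.09 above Con in each, and at 0.25 and 0.24 with library totals, where it still passed. Socs7 was 2.37-fold above Con in each (SE 0.05 on the log2 scale), Socs2 0.49 ± 0.08 and 0.46 ± 0.08 (-0.21 and -0.24 with library totals), Socs4 -0.33 ± 0.09 and -0.41 ± 0.09, and Socs5 -1.18 ± 0.08 and -1.16 ± 0.08.

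Replicate 2 of both AB groups, apart over the whole table, also stood apart within the family. In STSABs and UVABs alike it had the highest Socs1 and Cish and the lowest Socs2, Socs4 and Socs6. The log2 ratio of Socs1 to Socs6 counts, which needs no scaling, reached 2.75 and 2.94 in these libraries, against means of 1.90 ± 0.51 in STSABs and 1.99 ± 0.56 in UVABs (SD, n = 5). In LPS this ratio lay between 1.05 and 1.55, and in Con between -3.12 and -2.29.

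The genes most like each member were found by Pearson's r of log2 CPM over the 18 libraries, which mostly reflects the difference between Con and the other groups, so r is given only as a description. For Socs3 they were Rnf31, a subunit of the ligase that builds linear ubiquitin chains, B4galt5 and Gpr132 (r = 0.997 each). For Socs1 they included Tesk1 and Clcf1, a cytokine of the interleukin-6 family (r = 0.992 each). For Socs2 they were Rras2 (r = 0.967), Eloc, which encodes the elongin C that SOCS boxes bind (r = 0.962), and Ube2w (r = 0.958). For Cish they were Nacc1 (r = 0.988), Mgat1 (r = 0.987) and Fbrsl1 (r = 0.986), and for Socs7 Mllt6, Nuak2 and the cyclin Ccnd2 (r = 0.997 each).

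Among the members that fell, Socs5 was most like Cd200r1, an inhibitory myeloid receptor (r = 0.989), Snx5 and Abhd5 (r = 0.987 each). Socs6 was most like Cd200r4 and the importin Ipo7 (r = 0.983 each) and Mzt1 (r = 0.981). The mean of Ipo7 went from 119 CPM in Con to 69.0 in LPS and 46.4 and 46.9 in the AB groups, the stepwise order also seen for Socs6. Socs4 was most like Atp13a3 (r = 0.947), Mef2a (r = 0.937) and Xpnpep3 (r = 0.934).

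The rest of the pathway was read from lists by role, some of which share genes. In LPS against Con 40.0% of all 12465 genes rose and 43.0% fell, with 2365 higher and 8802 lower under library totals. Counts near these shares set no list apart. In LPS all 11 JAK kinases and STAT factors rose, or 9 with 1 lower under library totals (median 1.17, against -0.03 for all genes). Stat5a changed by 3.92 ± 0.10, but its estimated counts were whole in no library, nor were those of Stat5b, so its value is uncertain. Of 20 cytokines that use JAKs, 18 could be tested and all 18 rose (17 with upper-quartile scaling or library totals). The filter shaped this count. Genes almost without counts in Con, such as Il10, Csf3 and Ifnb1, passed it only through the other groups, so their rise was set in advance. Il11 and Ctf1 missed the filter, and their means were lower in LPS (0.133 CPM in Con and 0.012 in LPS, and 0.108 and 0.036). Il12b, a subunit of interleukins 12 and 23, went from 2.14 ± 0.112 CPM in Con (SD, n = 3) to 3741 ± 500.4 in LPS (SD, n = 5). Il10, like Csf3, had no count in Con and stood at 21.1 ± 2.67 CPM in LPS. Of 24 tested receptors that use JAKs, 18 rose and 6 fell, or 13 and 9 with library totals. Lifr, the receptor for leukemia inhibitory factor, fell from 19.8 ± 1.06 to 0.848 ± 0.190 CPM, and Il15ra rose by 4.53 ± 0.09.

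Partners and relatives of the SOCS proteins were counted in LPS in the same way, where 83.0% of all genes passed. Of 10 partners of the SOCS box ligase 8 rose and 1 fell, but 3 rose and 5 fell with library totals (median 0.61). Ube2f, the enzyme that passes NEDD8 to cullin 5, went from 36.4 ± 1.18 to 109 ± 3.05 CPM, and Eloc from 25.1 ± 2.49 to 67.9 ± 6.66. Of 18 other tested SOCS box proteins 11 rose and 3 fell, against 5 and 9 with library totals (median 0.50). Spsb1, which targets the inducible nitric oxide synthase for degradation, went from 5.34 ± 0.560 to 97.1 ± 5.11 CPM (4.18 ± 0.09). Of 15 other inhibitors of JAK-STAT signalling 11 rose and 2 fell, against 4 and 7 with library totals (median 0.58). Usp18, a brake on the type I interferon receptor, went from 16.2 ± 2.79 to 1259 ± 34.5 CPM.

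Genes that STATs are known to switch on were counted by factor, beside 40.0% of all genes higher and 43.0% lower in LPS. In LPS all 14 STAT3 targets rose (12 with library totals, 1 lower; median 2.08). Of 10 STAT5 targets 7 rose and 3 fell (6 and 3 with library totals; median 1.28), with Ccnd2, a cyclin, at 4.68 ± 0.07 and the survival gene Bcl2 at -2.92 ± 0.13. Of 15 STAT6 targets 7 rose and 7 fell (5 and 7 with upper-quartile scaling, 4 and 7 with library totals; median 0.37), with the chemokine Ccl22 at 5.46 ± 0.10 and the cadherin Cdh1 at -3.78 ± 0.06.

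The same lists were counted in the AB groups against LPS, where 57.4% of all genes passed in each comparison. Among the 18 tested cytokines 3 rose in each AB group, while 7 fell in STSABs and 4 in UVABs (medians -0.30 and -0.27). Lif, which signals through the receptor subunit that SOCS3 binds, had a mean of 16.9 ± 2.20 CPM in LPS (SD, n = 5). It stood at 61.5 ± 13.97 in STSABs and at 63.0 ± 12.6 in UVABs (changes of 1.86 ± 0.14 and 1.90 ± 0.14). Il23a, the second subunit of interleukin-23, went from 20.3 ± 1.55 CPM to 70.1 ± 13.5 and 71.9 ± 18.1. Il10 went from 21.1 ± 2.67 to 9.92 ± 1.95 and 9.77 ± 1.85 CPM.

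Among JAK kinases and STAT factors 6 rose and 3 fell in STSABs, and 5 and 3 in UVABs. Stat4 rose by 0.76 ± 0.11 and 0.84 ± 0.11, and Jak3 by 0.62 ± 0.08 and 0.57 ± 0.08. Of the receptors 5 rose and 7 fell in STSABs (6 and 4 with library totals), and 5 and 4 in UVABs. Il6ra, the receptor for interleukin-6, fell by 0.54 ± 0.09 and 0.52 ± 0.09, and Il10rb by 0.42 ± 0.05 in each. Of the 10 ligase partners 1 rose and 4 fell in each AB group (1 and 2 with library totals). Cul5, the cullin that SOCS boxes prefer, stood at 26.4 ± 1.08 CPM in LPS, 19.6 ± 1.78 in STSABs and 19.4 ± 1.82 in UVABs (-0.43 ± 0.07 and -0.45 ± 0.07). Other SOCS box proteins counted 2 higher and 6 lower in STSABs and 3 and 7 in UVABs, and other inhibitors 3 and 7, and 3 and 5 (3 and 4, and 3 and 3, with library totals).

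STAT3 targets counted 5 higher and 5 lower in each AB group, with the transcription factor Nfil3 at 0.52 ± 0.07 and 0.54 ± 0.07 and Cebpd at -0.81 ± 0.06 and -0.96 ± 0.06. STAT5 targets counted 6 higher and 2 lower in STSABs (6 and 1 with library totals) and 5 and 2 in UVABs, with the cyclin Ccnd3 at 1.03 ± 0.10 in UVABs. STAT6 targets counted 3 and 4 in STSABs (5 and 4 with library totals) and 3 and 5 in UVABs, with Ccl24, a chemokine for eosinophils, at -3.59 ± 0.27 and -3.65 ± 0.27. Between UVABs and STSABs no member of any list passed, as for the whole table.

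**Figure D5:**
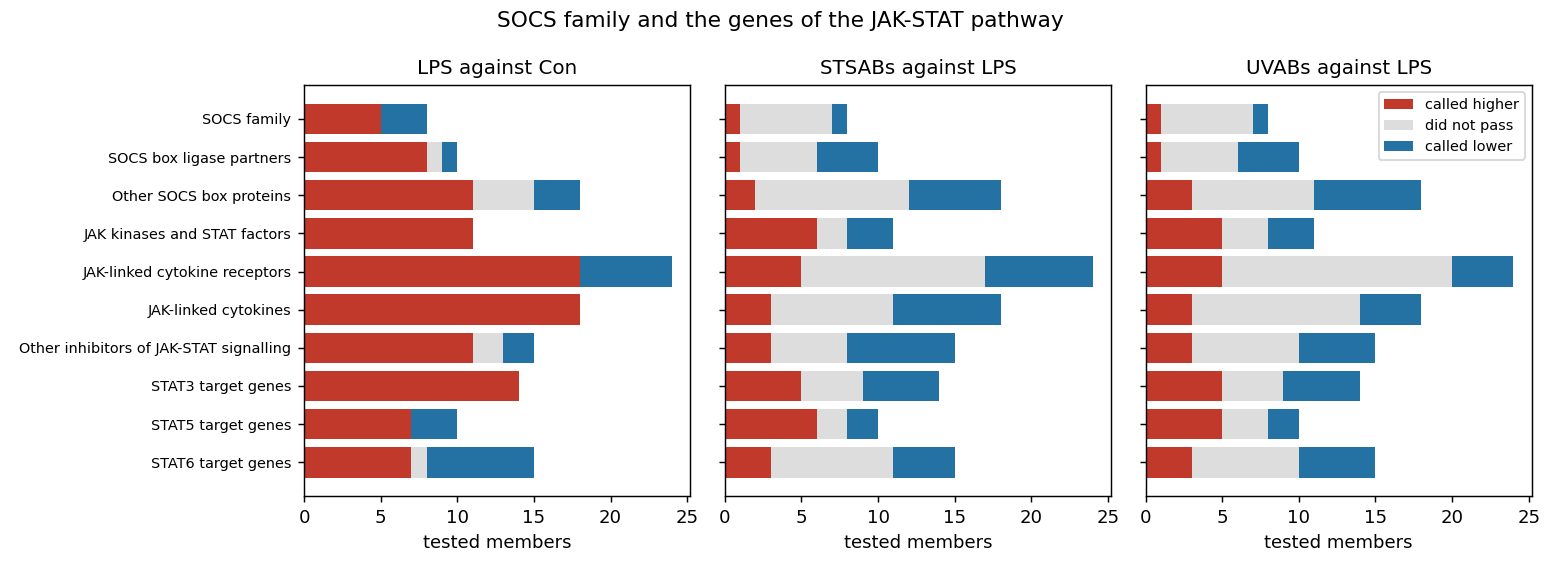
Number of tested genes (horizontal axis) called higher (red), not past the threshold (grey) or called lower (blue) in the SOCS family and 9 lists of the JAK-STAT pathway, for LPS against Con and each AB group against LPS. All 11 JAK and STAT genes and all 18 tested cytokines are red in LPS against Con with TMM scaling, and the AB panels show both colours in every list.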

How the data were processed

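Values were estimated counts by gene symbol, deposited by the authors as 1 table of 18 libraries and not normalized. HISAT2 and the build mm39 are named in the submitters' processing notes. Which tool, strand setting and annotation served for counting is not given in the sources used here. Of the values 6.35% were not whole numbers, among the members only Socs1 in 1 library, and counts were rounded before testing.

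Genes were filtered with filterByExpr by group, and edgeR 4.0.16 (R 4.3.3) was fitted with TMM scaling and group means to all libraries. The p-values of 6 comparisons were adjusted (Benjamini-Hochberg, called at 0.05) over 12465 genes. The SE is the absolute log2 fold change over the square root of F. The test was also run on simulated data in which few genes changed. In LPS against Con 83.0% of genes passed, so that run does not bear on the choice of scaling.

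The members, the lists and the tests were chosen with earlier results of these data known. All members are named; of each pathway list the text names some of the up to 2 largest called rises and falls among genes of at least 1 CPM, and for each member the 3 most alike genes, without predicted genes. Some genes and 1 list that this rule covers are not reported here.

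Alternatives were other scalings (DESeq2 size factors, upper quartile, library totals), DESeq2 1.42.0 and limma-voom (limma 3.58.1), other filters, other sets of libraries, each library left out, a block for the replicate number, and a term setting replicates 4 and 5 apart from 1 to 3. Same-numbered libraries of STSABs and UVABs deviated together from their group means (r from 0.116 to 0.54 over 5 pairs, highest for replicate 2). For 4 of the 5 STSABs libraries the same-numbered UVABs library was the best match. A block fit of these groups alone was therefore added after the data were seen. Libraries of 1 group differed by more than counting noise in all 33 pairs (chi-square per gene from 2.26 to 32.3).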

Additional observations from a re-analysis of the deposited data

Results flagged for a closer look

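In 2 of 24 sets of 5 libraries, 1 library lay further from the others than Dixon's criterion allows, a rate that chance gives in about 1 of 20 such sets. Cish was highest in LPS replicate 3, at 481.0 CPM. Socs2 was highest in LPS replicate 1, at 329.5 CPM, the library that was also lowest for Socs3 and Socs1 in its group.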

How the results depend on the processing

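No call of a member against Con changed except with library totals, where Socs2 turned to -0.22 in LPS and to -0.21 and -0.24 in the AB groups, Cish missed the threshold in LPS, and 3 members were called higher in LPS in place of 5. Over all genes library totals gave 2365 higher and 8802 lower in LPS, in place of 4991 and 5361. The counts were 2510 and 8511 for STSABs (4989 and 5313 with TMM) and 2504 and 8523 for UVABs (5013 and 5288 with TMM).

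Against LPS the fall of Socs6 held under every alternative run. The number of members called higher was 2 in each AB group with library totals and in fits of only the groups compared, 0 in each with replicates 1 to 3 only, and from 0 to 2 in each when single libraries were left out.

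None of the other changes of sign was past the threshold, and most were between values near 0. The widest was that of Socs1 in UVABs against STSABs, from 0.01 to -0.19 without UVABs replicate 2. In STSABs against LPS, Socs2 stood at 0.0080 with library totals and 0.0047 without replicate 2 of both AB groups, and Socs4 at -0.018 with replicates 1 to 3 only. Leaving out single libraries gave -0.063 to 0.013 for Socs2, -0.029 to 0.063 for Socs4 and -0.035 to 0.032 for Socs5. In UVABs against LPS, Socs5 stood at -0.015 with replicates 1 to 3 only and at -0.011 to 0.056 when single libraries were left out.

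In UVABs against STSABs, leaving out replicate 2 of both gave -0.024 for Socs1 and 0.014 for Cish, and replicates 1 to 3 alone gave 0.024 for Socs3 and -0.035 for Socs5. Socs7 stood at -0.0019 with DESeq2 size factors, -0.0018 with upper-quartile scaling, -0.0059 with library totals, -0.0018 in the DESeq2 test and -5.0e-05 in a fit of the AB groups. Single libraries left out gave -0.19 to 0.18 for Socs1, -0.070 to 0.024 for Socs2, -0.036 to 0.021 for Socs3, -0.0099 to 0.052 for Socs5, -0.027 to 0.017 for Socs7 and -0.028 to 0.029 for Cish. The cause was not tested for any of these changes.

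With the replicate number as a block 8, 2, 2 and 0 members passed in LPS against Con, in each AB group against LPS and between the AB groups, the same counts as without it, and all gene counts were within 1.5 times. In the block fit of the AB groups alone 0 genes were called and 457 had an unadjusted p under 0.05. For same-numbered libraries of other groups r lay between -0.0907 and 0.113, the highest of which came near the lowest of the AB pairs (0.116).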
